A study of Homo sapiens with 24 samples.

Results

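The 10 genes NEFL, NEFM, NEFH, INA, TUBB3, MAPT, MAP2, DCX, GAP43 and STMN2 encode proteins of the neuronal cytoskeleton and of the growing axon. They were taken by name, all 10 were among the 60658 genes of the deposited count tables, and each had 1 row. The cells carry the label SH-SY5Y, a human neuroblastoma line. Their messenger RNA was profiled 48 h after a transfection aimed at ciRS-7 (also called CDR1as), a circular RNA. Each of the 4 knockdown setups had 3 knockdown (KD) libraries against ciRS-7 and 3 libraries of its own non-targeting control (NTC), 24 libraries in all. The agoshRNA setup used a hairpin RNA vector, of a design that Argonaute processes, without CasRx. For gRNA and pre-gRNA, cells received 2 plasmids, 1 for the RNA-cutting nuclease CasRx fused to GFP and 1 for the guide, as a mature guide or as its precursor. Guides of the syn-gRNA setup were chemically synthesised, and how they were delivered is not described in the labels. The plasmid setups, KD and NTC, used a lipid transfection reagent. The deposited columns carry the letters A, B and C, which nothing links to the labels' replicate numbers, so a library is called by its setup, its arm and this letter. Nothing in the labels says that the 3 libraries of a group came from separate cultures, and p-values then measure only the spread between these libraries, which may be technical.

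Neurofilaments are the intermediate filaments of neurons. They are built from a light chain (NEFL), a medium chain (NEFM), a heavy chain (NEFH) and α-internexin (INA), and they set the calibre of large axons. Microtubules give the axon its tracks for transport: TUBB3 encodes the neuron-enriched class III β-tubulin, MAPT encodes tau, MAP2 encodes a microtubule-associated protein of dendrites, and DCX encodes doublecortin, which binds microtubules in migrating young neurons. GAP43 is a membrane protein of growth cones, and STMN2 is a tubulin-binding regulator of axon growth and repair. Neuroblastoma lines of sympathetic origin are known for expressing many of these genes.

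The upstream sequences of 4 members are shown because these genes span the range of expression described next, from INA and TUBB3, which were clearly expressed, through GAP43 at a low level, to MAP2 near the detection limit. RefSeq windows (GRCh38.p14) were matched by symbol for 5 of the 10 members, namely INA, TUBB3, MAP2, DCX and GAP43. Each sequence holds the 250 bases before the annotated start, 5′ to 3′ on the plus strand, with every CpG dinucleotide in capitals. Where a gene had several windows, the one with the most CpG was taken (1 of 2 for TUBB3 and 1 of 3 for MAP2).
INA, chr10:103276888-103277137: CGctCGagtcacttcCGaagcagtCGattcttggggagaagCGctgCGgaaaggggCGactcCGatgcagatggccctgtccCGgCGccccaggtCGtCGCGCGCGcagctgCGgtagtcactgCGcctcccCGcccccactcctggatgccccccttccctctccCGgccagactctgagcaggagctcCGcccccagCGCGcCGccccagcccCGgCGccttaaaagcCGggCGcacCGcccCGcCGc
TUBB3, chr16:89923092-89923341: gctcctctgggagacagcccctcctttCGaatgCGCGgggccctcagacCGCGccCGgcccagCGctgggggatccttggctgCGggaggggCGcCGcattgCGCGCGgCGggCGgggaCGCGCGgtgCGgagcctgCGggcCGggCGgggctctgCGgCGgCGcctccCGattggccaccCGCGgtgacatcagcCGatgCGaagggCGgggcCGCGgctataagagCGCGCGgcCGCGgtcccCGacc
GAP43, chr3:115623260-115623509: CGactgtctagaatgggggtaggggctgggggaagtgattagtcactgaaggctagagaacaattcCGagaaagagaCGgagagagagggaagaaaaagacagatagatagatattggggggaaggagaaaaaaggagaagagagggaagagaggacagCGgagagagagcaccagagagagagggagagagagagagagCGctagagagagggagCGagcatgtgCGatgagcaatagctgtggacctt
MAP2, chr2:209579357-209579606: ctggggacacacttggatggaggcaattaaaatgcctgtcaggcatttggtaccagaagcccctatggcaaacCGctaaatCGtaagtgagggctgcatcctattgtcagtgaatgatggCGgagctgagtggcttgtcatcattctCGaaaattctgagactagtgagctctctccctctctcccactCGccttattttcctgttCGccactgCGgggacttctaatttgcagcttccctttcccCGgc

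The INA sequence held 30 CpG at a GC content of 72.8%, and the TUBB3 sequence held 39 CpG at 78.0%. The GAP43 sequence held 7 CpG at 51.6%, and the MAP2 sequence held 8 at 51.2%. Over 35116 RefSeq windows of 250 bases the median was 11 CpG. At least as many CpG as in INA were found in 12.4% of them, as in TUBB3 in 2.7%, as in GAP43 in 58.9% and as in MAP2 in 56.3%. The other TUBB3 window held 9 CpG, and the 3 windows of DCX held 1 to 3. The motif GGGCGG, searched on both strands, occurred 4 times in the INA sequence and 3 times in that of TUBB3, and 0 times in those of GAP43 and MAP2, while 42.6% of all windows held it. The motif TATAAA, also on both strands, was found in none of the 4 sequences shown, against 10.7% of all windows. The 2 members with CpG-dense windows were thus the 2 expressed ones among these 4, which is a description of 4 genes.

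Libraries held 10994974 to 16233777 counts, and 16947 to 18863 genes had at least 10 counts. The mean GC content of the genes counted, weighted by counts, ranged from 47.32 to 52.31% between libraries, and within the agoshRNA KD group alone from 47.32 to 52.16%. Libraries with the same letter in KD and NTC of a setup deviated from their group means together. The host locus of the target did not check the labels, since poly(A) selection does not capture a circular RNA: CDR1-AS had 0 to 15 counts in the 12 KD libraries and 2 to 16 in the 12 NTC libraries. Against the cell label, 0 of 10 markers of noradrenergic neuroblastoma reached a mean of 10 CPM (counts scaled to a common library total). TH and DBH had at most 2 counts in any library. Means of at least 1 CPM were reached by 4 of the 10, namely ISL1 (8.54 CPM, 70 to 159 counts), GATA3 (8.40 CPM, 50 to 226 counts), HAND2 (2.66 CPM) and CHGA (1.95 CPM). All 10 genes of a list for HEK293, a line of embryonic kidney origin, reached that mean, with HOXA9 at 98.2 CPM and PAX2 at 10.97 CPM. Of the mesenchymal list 5 of 7 genes reached it. The summed noradrenergic markers ranged over 13.4 to 25.3 CPM in agoshRNA, 21.0 to 32.0 in gRNA, 18.4 to 31.4 in pre-gRNA and 20.5 to 23.6 in syn-gRNA libraries. The part of cell identity in the levels below was not tested.

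Of the 10 members, 5 were clearly expressed, 1 was low and 4 were close to absent. NEFL, on chromosome 8 at 24808468 to 24814624 (hg19, minus strand), had 463 to 2039 counts per library with a median of 1422. NEFM, beside it at 24770525 to 24776611 on the plus strand, had 304 to 874 counts with a median of 525. INA, on chromosome 10 at 105036920 to 105050108, had 155 to 731 with a median of 419. These 3 filament genes had at least 10 counts in all 24 libraries. TUBB3, on chromosome 16 at 89987800 to 90005169, had 118 to 487 counts. MAPT, on chromosome 17 at 43971748 to 44105700, had 217 to 726 counts. GAP43, on chromosome 3 at 115342171 to 115440337, stood far below these with 4 to 28 counts, and 20 of 24 libraries reached 10.

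The other 4 members gave almost no reads. MAP2 (chromosome 2, 210288782 to 210598842) had 0 to 11 counts per library and 114 in all. NEFH (chromosome 22, 29876219 to 29887379) had 0 to 8 counts per library and 50 in all. DCX (chromosome X, 110537007 to 110655657, minus strand) had 19 counts in all, with 12 libraries at 0, and STMN2 (chromosome 8, 80523049 to 80578410) had 14, with 13 libraries at 0. A library with 0 counts allows a level of up to 0.185 to 0.273 CPM, which is 3 counts in the deepest and in the shallowest library, for counting error alone. STMN2 and DCX never exceeded 3 counts, so both lay at that limit in every library. The neurofilament heavy chain, a microtubule protein of dendrites, doublecortin and STMN2 were thus barely detected in the same libraries in which the light and medium chains, α-internexin, tau and TUBB3 gave at least 118 counts per library.

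Per kilobase of merged exons, which allows levels to be compared between genes, NEFL was the highest member at a mean of 21.9 CPM per kb. INA (9.22 CPM per kb) and NEFM (8.76) followed and lay close together. TUBB3 stood at 4.04, MAPT at 2.04 and GAP43 at 0.578 CPM per kb. NEFL exceeded 90.5% of protein-coding genes by this measure, INA 78.5%, NEFM 77.5%, TUBB3 62.6% and MAPT 51.2%, whereas STMN2 exceeded 20.1% and DCX 14.6%. The order among the middle members depends on the length used: over the longest transcript instead, a choice made after seeing the data, NEFM stood at 9.55, INA at 9.22 and TUBB3 at 9.05 CPM per kb, with MAPT at 4.46. The libraries were not stranded, so reads of overlapping genes cannot be told apart by strand. TUBB3 shares its locus with the readthrough gene RP11-566K11.2, which had 6261 counts in all against 6041 for TUBB3. The ratio of TUBB3 to that gene was 0.877 to 1.02 in every library, so the TUBB3 level is uncertain. An antisense gene at NEFM, GS1-72M22.1, had 2723 counts in all against 12972 for NEFM, and one at MAPT, RP11-105N13.2, had 1141 against 10249.

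Among the 4 filament chains NEFL made up the largest share in every library. By CPM per kb it took 43.7 to 67.9% of their sum, with a median of 53.4%. NEFM took 15.6 to 32.9% and INA 13.5 to 30.2%. NEFH never took more than 0.338%. In syn-gRNA libraries INA took 24.6 to 30.2%, a narrow range at the upper end of that seen in the other setups (agoshRNA 13.5 to 28.6%, gRNA 18.8 to 23.9%, pre-gRNA 14.2 to 28.3%). The summed level of the 4 chains was 27.8 to 34.5 CPM per kb in syn-gRNA libraries and 40.3 to 58.1 in gRNA libraries, which did not overlap. The agoshRNA (19.2 to 51.8) and pre-gRNA (29.1 to 52.5) libraries overlapped with both. Of 20172 single genes, 8.91% had all 6 gRNA libraries above all 6 syn-gRNA libraries. NEFL was the largest part of the sum, so the sum is not separate from the NEFL levels given below.

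The knockdown comparison asks, as the series design states its aim, whether depleting ciRS-7 by each approach shifted other messenger RNAs. No member was called in any setup. The 6 members with enough counts to be tested were the 5 expressed ones and GAP43, while NEFH, MAP2, DCX and STMN2 did not reach 10 counts in 3 of the 6 libraries of any setup. DESeq2 (Wald test, Benjamini-Hochberg adjusted over all genes tested) called 0 of 6 members at an adjusted p under 0.05 in each of the 4 setups, beside 0 of 17802 to 18717 genes (0.0% called in each setup). At an unadjusted p under 0.05 it marked 0 members, and 0 to 55 genes per setup. The quasi-likelihood test of edgeR also called 0 genes in each setup, with 3 to 176 genes and 0 members at an unadjusted p under 0.05. The authors' deposited table gave an adjusted p of 1.0 for every member in every setup.

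NEFL in the agoshRNA setup stood at 116, 104 and 39.6 CPM in KD libraries A, B and C and at 122, 122 and 46.3 in NTC libraries A, B and C. Both C libraries were low and the arms overlapped. The log2 fold change of KD over NTC was -0.15 (SE 0.59, n = 3 and 3, DESeq2 adjusted p = 1.0). NEFM in that setup had 38.5, 37.5 and 26.03 CPM in KD and 53.7, 42.2 and 35.4 in NTC, a log2 fold change of -0.33 (SE 0.35, DESeq2 adjusted p = 1.0). INA had 18.0, 42.3 and 13.3 CPM in KD and 22.1, 44.8 and 18.3 in NTC, a log2 fold change of -0.19 (SE 0.65, DESeq2 adjusted p = 1.0). In this setup the KD library was below the NTC library of the same letter for each of the 3 letters in NEFL, NEFM and INA, and above it for each in GAP43, beside 11.3 and 10.5% of genes tested. In pre-gRNA NEFM went the opposite way, above NTC for all 3 letters (19.5% of genes tested), while MAPT was below for all 3 (16.9%). In gRNA, TUBB3 was above for all 3 letters (7.04%) and GAP43 below (15.8%). NEFH had 1, 1 and 1 counts in the agoshRNA KD libraries and 8, 3 and 3 in NTC, too few for the test. These NEFH counts did not overlap. Of the 17806 genes with enough counts, 0.87% did not overlap between the arms of that setup, a share that leaves out genes as sparse as NEFH. STMN2 in syn-gRNA had 1, 1 and 2 counts in KD and 0, 0 and 1 in NTC, which overlap as counts. By CPM the arms were apart (0.0754 in KD A against 0.0658 in NTC C), which rests on the library totals alone. Of the genes with enough counts, 4.88% did not overlap in syn-gRNA, a share that leaves out genes as sparse as STMN2.

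In the gRNA setup NEFM stood at 28.6, 48.2 and 50.3 CPM in KD and at 51.6, 47.2 and 49.9 in NTC. A single low library, KD A, carried the difference, and the log2 fold change was -0.14 (SE 0.33). INA had its lowest gRNA value in the same library, 24.5 CPM beside 31.1 to 44.9 in the other 5, and TUBB3 and MAPT their highest, at 26.04 and 43.1 CPM. In the pre-gRNA setup NEFM had 42.6, 31.6 and 56.2 CPM in KD and 38.8, 22.4 and 53.6 in NTC (log2 fold change 0.18, SE 0.40). Here letter B was low in both arms for NEFM and INA (INA 15.1 CPM in KD and 13.7 in NTC) and high in both for TUBB3 (25.5 and 30.5 CPM). In the syn-gRNA setup NEFM had 30.1, 28.4 and 27.7 CPM in KD and 32.3, 26.1 and 22.2 in NTC.

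The intervals given here come from fits without the column letter as a block. For 5 of the 6 tested members, all but GAP43, the syn-gRNA setup gave the narrowest interval of the 4 setups. Its 95% intervals of the KD effect, on the log2 scale, were -0.35 to 0.42 for NEFL, -0.23 to 0.42 for NEFM, -0.40 to 0.23 for INA, -0.46 to 0.29 for TUBB3 and -0.37 to 0.26 for MAPT. In the agoshRNA setup the interval for NEFL ran from -1.31 to 1.00 and that for INA from -1.47 to 1.09. Changes of up to about the sizes at these bounds were thus not excluded by this fit. With the column letter as a block, the median SE over all genes tested was 0.231 in agoshRNA, beside 0.533 without it. It was 0.239 in gRNA, 0.172 in pre-gRNA and 0.178 in syn-gRNA, beside 0.433, 0.495 and 0.205 without the block. With the block, syn-gRNA was thus not the setup of lowest median SE. GAP43, at 4 to 28 counts, had intervals from -1.97 to 0.70 in syn-gRNA and from -0.44 to 1.54 in agoshRNA. The median log2 fold change of the 6 members lay between -0.07 (syn-gRNA) and 0.04 (agoshRNA), beside medians of 0.00 and 0.06 over all genes tested. KD and NTC libraries of each of the 6 members overlapped in every setup, while 0.87, 2.3, 1.13 and 4.88% of genes tested in agoshRNA, gRNA, pre-gRNA and syn-gRNA did not overlap.

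**Figure D1:**
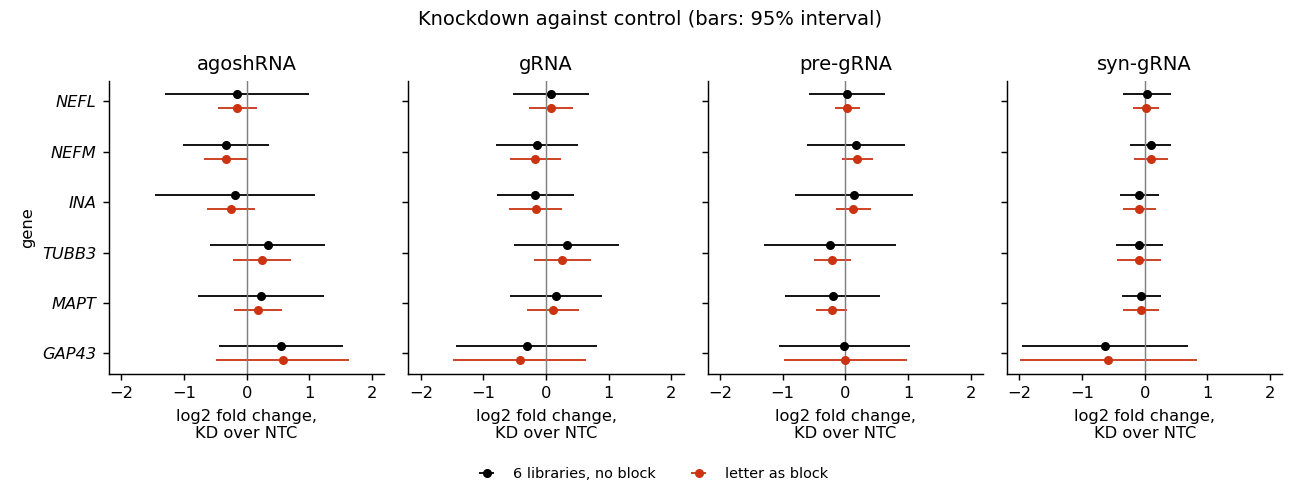
Log2 fold change of KD over NTC (x axis) for the 6 tested members (y axis) in each setup; points are DESeq2 estimates and bars 95% intervals, in black without and in red with the column letter as a block. Every black interval crosses 0, and those of NEFL and INA in agoshRNA span more than 2 log2 units while those in syn-gRNA, apart from GAP43, stay within 0.46.

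The test of whether the KD effect differed between setups, an interaction term in 1 model of all 24 libraries, called 0 of 6 members in each of the 6 pairs of setups, beside 0 of 20172 genes (0.0%) by DESeq2 and 0 by edgeR. At an unadjusted p under 0.05 there were 0 members, and 29 to 45 genes per pair with DESeq2 (46 to 61 with edgeR). The widest estimate was that of GAP43 between agoshRNA and syn-gRNA, a log2 difference of 1.17 (SE 0.72, adjusted p = 1.0), which rests on 4 to 28 counts per library.

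Setups were then compared with KD and NTC libraries averaged, 6 libraries against 6, to show how the members vary apart from the knockdown. NEFM was lower in syn-gRNA than in the gRNA and pre-gRNA setups, and it was the only member called in any of the 6 pairs of setups. Its mean was 27.8 ± 3.48 CPM (SD, n = 6) in syn-gRNA, 46.0 ± 8.66 in gRNA, 40.9 ± 12.9 in pre-gRNA and 38.9 ± 9.04 in agoshRNA. In gRNA over syn-gRNA the log2 difference was 0.62 (SE 0.18, DESeq2 adjusted p = 0.00937), and 5 of 6 gRNA libraries lay above every syn-gRNA library. In pre-gRNA over syn-gRNA it was 0.48 (SE 0.18, DESeq2 adjusted p = 0.0425), with 4 of 6 pre-gRNA libraries above every syn-gRNA library and the lowest, NTC B at 22.4 CPM, inside the syn-gRNA range of 22.2 to 32.3. In agoshRNA over syn-gRNA it was 0.47 (SE 0.18, DESeq2 adjusted p = 0.0594), which missed the threshold. These are bulk libraries, so fewer cells of a kind and less RNA per cell cannot be told apart, and setup, delivery and any batch cannot be told apart either.

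Many genes differed from syn-gRNA. The share of 20172 genes called higher in the other setup was 7.58% for agoshRNA, 5.89% for gRNA and 10.6% for pre-gRNA, and 5.66, 4.97 and 7.34% were called higher in syn-gRNA. With offsets for GC content the calls went from 1529 higher and 1142 lower to 2499 and 2354 for agoshRNA, from 1188 and 1003 to 2009 and 2202 for gRNA, and from 2134 and 1481 to 2555 and 2670 for pre-gRNA. Among the members, 0 of 6 were called for agoshRNA, 1 of 6 for gRNA and 1 of 6 for pre-gRNA, and none was called higher in syn-gRNA. At an unadjusted p under 0.05 there were 4, 3 and 4 of the 6. Of the 20172 genes, 5156 for agoshRNA and 4794 for gRNA also passed that threshold, in either direction. The median log2 difference of the 6 members was 0.55 for agoshRNA, 0.51 for gRNA and 0.54 for pre-gRNA, beside 0.01, 0.03 and 0.05 over all genes tested. These 3 comparisons share the syn-gRNA libraries.

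The NEFM difference from syn-gRNA depended on how the libraries were treated. Same-letter KD and NTC libraries deviate together, so 6 libraries a setup are not 6 independent values and the p-values above are too small. With same-letter libraries summed to 3 values a setup, a choice made after seeing the data, NEFM gave 0.64 for gRNA (adjusted p = 0.29) and 0.51 for pre-gRNA (adjusted p = 0.336), and neither was called. With offsets for GC content it gave 0.46 (adjusted p = 0.194) and 0.26 (adjusted p = 0.49). With edgeR the gRNA call stood (0.63, adjusted p = 0.0399) and the pre-gRNA call did not (0.49, adjusted p = 0.0784). Leaving out each of the 24 libraries in turn, the gRNA call was lost once, without syn-gRNA NTC C (0.56, adjusted p = 0.0503), and the pre-gRNA call 13 times, with estimates down to 0.35 without pre-gRNA NTC C (adjusted p = 0.128). Those 13 were gRNA KD C and the 3 gRNA NTC libraries, pre-gRNA KD A and C and NTC A and C, and the 3 syn-gRNA KD libraries with NTC B and C. The agoshRNA difference was called 5 times, without agoshRNA KD C, gRNA KD A, pre-gRNA NTC B or C, or syn-gRNA NTC A (0.46 to 0.53, adjusted p = 0.036 to 0.0494). The estimate was above 0 in each of these fits.

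NEFL was also lowest in syn-gRNA, without passing the test. Its 6 syn-gRNA libraries ranged from 54.3 to 82.7 CPM with a mean of 71.2 ± 11.4 (SD, n = 6). The gRNA libraries ranged from 97.8 to 140 CPM and the pre-gRNA libraries from 85.5 to 121, so neither overlapped with syn-gRNA, while agoshRNA ran from 39.6 to 122 CPM because of its C libraries. MAPT showed the same arrangement: 19.7 to 23.2 CPM in syn-gRNA, 25.95 to 43.1 in gRNA and 28.98 to 38.0 in pre-gRNA, with agoshRNA from 17.1 to 52.9. Of the 20172 genes tested, 8.91% had all 6 gRNA libraries above all 6 syn-gRNA libraries, and 9.94% had this for pre-gRNA. The log2 differences for NEFL were 0.55 for gRNA (SE 0.25, DESeq2 adjusted p = 0.139) and 0.49 for pre-gRNA (SE 0.25, adjusted p = 0.153). For MAPT they were 0.46 (SE 0.25, DESeq2 adjusted p = 0.234) and 0.64 (SE 0.25, adjusted p = 0.0533), and 0.64 for agoshRNA (SE 0.25, adjusted p = 0.0651). MAPT passed in pre-gRNA when any of 7 libraries was left out (agoshRNA A or B of either arm, gRNA KD A, pre-gRNA KD C or NTC C), with 0.63 to 0.69, and in agoshRNA without agoshRNA KD B, agoshRNA NTC B or gRNA KD A, with 0.64 to 0.80.

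TUBB3 averaged 13.3 ± 1.56 CPM (SD, n = 6) in syn-gRNA and 16.8 ± 5.33 in gRNA, 20.6 ± 6.92 in pre-gRNA and 20.9 ± 7.56 in agoshRNA, and its setups overlapped. Its log2 differences from syn-gRNA were 0.64 for agoshRNA (SE 0.31, DESeq2 adjusted p = 0.165), 0.26 for gRNA and 0.65 for pre-gRNA; it passed in agoshRNA without KD B of that setup (0.80, adjusted p = 0.0387) and in pre-gRNA without NTC C of that setup (0.80, adjusted p = 0.0429). GAP43 averaged 0.773 ± 0.468 CPM in syn-gRNA and 1.21 to 1.47 CPM in the other setups, and its log2 difference of agoshRNA over syn-gRNA was 0.91 (SE 0.36, DESeq2 adjusted p = 0.0712) on few counts, and 1.25 without syn-gRNA KD A (adjusted p = 0.0245). INA differed least: 29.1 ± 1.86 CPM in syn-gRNA beside means of 26.5 in agoshRNA, 33.1 in gRNA and 30.5 in pre-gRNA, with log2 differences of -0.12, 0.07 and -0.05 (SE 0.31 each). The interval of the gRNA difference for INA ran from -0.53 to 0.67, so INA was not shown to be level between setups. With GC offsets 3 of 6 members were called higher in agoshRNA than in syn-gRNA, beside 2499 of 20171 genes. They were MAPT (0.37, DESeq2 adjusted p = 0.0081), TUBB3 (0.42, adjusted p = 0.0174) and GAP43 (0.89, adjusted p = 0.045). MAPT was also called higher in pre-gRNA (0.28, DESeq2 adjusted p = 0.0466).

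Between the 3 plasmid setups no member was called. DESeq2 called 0.302% of genes between agoshRNA and gRNA (0.183% higher in agoshRNA and 0.119% higher in gRNA), 0.322% between agoshRNA and pre-gRNA (0.129% higher in agoshRNA and 0.193% higher in pre-gRNA) and 0.0% between gRNA and pre-gRNA (0 genes with edgeR as well, and 143 genes at an unadjusted p under 0.05 with DESeq2). Neighbouring setups in the order of NEFM levels (gRNA, pre-gRNA, agoshRNA) differed by less than their spread, with log2 differences of 0.14 (gRNA over pre-gRNA, SE 0.18) and -0.01 (agoshRNA over pre-gRNA, SE 0.18).

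**Figure D2:**
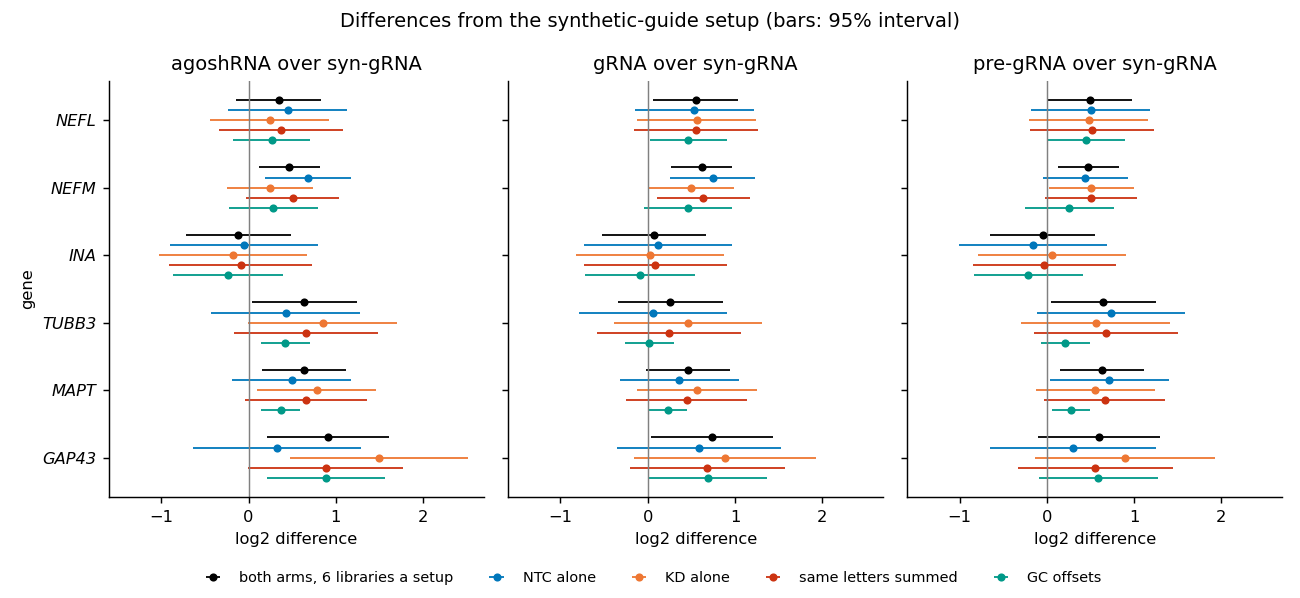
Log2 difference of each setup over syn-gRNA (x axis) for 6 members (y axis) from 5 treatments of the libraries; points are DESeq2 estimates and bars 95% intervals. The estimates for NEFM stay between 0.25 and 0.74 across the treatments, their intervals widen when libraries are summed or 1 arm is used, and the estimates for INA lie around 0.

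The 5 expressed members did not follow 1 common pattern across libraries. Over the 24 libraries, Pearson's r of log2(CPM + 0.5) was 0.85 between TUBB3 and MAPT and 0.59 between NEFL and NEFM. INA ran against both microtubule genes, with r of -0.67 to TUBB3 and -0.51 to MAPT, and r between NEFL and TUBB3 was -0.01. The ratio of TUBB3 to INA in CPM went from 0.262 in an agoshRNA library to 2.23 in a pre-gRNA library, and within syn-gRNA from 0.345 to 0.539. These r values are descriptions, since libraries share letters, setups and GC composition. The longest transcript of TUBB3 holds 61.2% GC and that of MAPT 57.4%. In 6 of the 8 groups the library of highest GC content also had the highest TUBB3, and in 6 of 8 the highest MAPT. The other expressed members did not line up by their own GC content: that library was the highest of its group for NEFL (48.2% GC) in 5 of 8 groups, for NEFM (54.0%) in 3 and for INA (50.8%) in 2, and the lowest in 2, 4 and 4. NEFH, with 57.8% GC and at most 8 counts, was highest there in 1 group and lowest in 3. The part of GC composition in these relations was tested only through the offsets given above.

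The genes most like each member over the 24 libraries, among 11758 protein-coding genes averaging 50 counts or more, were not other members. NEFL was most like HK2, a hexokinase (r = 0.96), CA8 (0.95) and SRD5A3 (0.95). NEFM was most like RNF144A (0.95), the protein kinase PRKCA (0.95) and COX18 (0.93). INA was most like HNRNPK, an RNA-binding protein (0.95), KIAA0391 (0.92) and EGLN1 (0.92). MAPT was most like MBOAT7, LIMK1 (both 0.97) and COX19 (0.97). TUBB3 was most like its overlapping readthrough gene RP11-566K11.2 (0.99), then DBNDD2 (0.97) and the overlapping SYS1-DBNDD2 (0.97).

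Other genes of the neuronal cytoskeleton were examined in lists. For the knockdown, and for its difference between setups, DESeq2 called 0 genes of the lists. Against syn-gRNA, tubulins were called higher in agoshRNA for 3 of 11 (TUBB6, TUBB2B, TUBA1A), in gRNA for 1 (TUBB6) and in pre-gRNA for 3 (TUBB6, TUBB4A, TUBB2B), and 0 were called lower, beside 7.58, 5.89 and 10.6% of all genes called higher. TUBB6 had log2 differences of 1.14 (SE 0.19, DESeq2 adjusted p = 1.984e-07), 0.79 (SE 0.19, adjusted p = 0.000906) and 0.87 (SE 0.19, adjusted p = 0.000123). With same-letter libraries summed, TUBB6 gave 1.17 (adjusted p = 0.00785), 0.78 (adjusted p = 0.18) and 0.90 (adjusted p = 0.0602), so it was called for agoshRNA alone, and no other tubulin was called. The median of the 11 tubulins was 0.41, 0.24 and 0.44, and with GC offsets it fell to 0.20, 0.01 and 0.07, with TUBB4B then called lower in gRNA and pre-gRNA. Levels per kilobase placed the ubiquitous tubulins TUBB (744 CPM per kb) and TUBA1B (444) far above TUBB3.

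Of 20 tested microtubule-associated and collapsin-response genes, 5 were called higher in agoshRNA than in syn-gRNA, 4 in gRNA and 4 in pre-gRNA, and 0 lower. Of all genes, 7.58, 5.89 and 10.6% were called higher. The medians of the list were 0.25, 0.35 and 0.36. MAP1A, a microtubule-associated protein of mature neurons, was higher by 1.36 (SE 0.30, DESeq2 adjusted p = 0.000335), 1.19 (SE 0.30, adjusted p = 0.00277) and 1.24 (SE 0.30, adjusted p = 0.00114). TPPP, a tubulin polymerisation-promoting protein, was higher by 1.15, 0.99 and 1.16, and CRMP1, a mediator of semaphorin signals, by 0.60, 0.73 and 0.87, all called. STMN1, a paralogue of STMN2 found in proliferating cells, stood at 60.4 CPM per kb, while STMN2 stood at 0.0178. With same-letter libraries summed, 1, 0 and 1 genes of that list were called (MAP1A for agoshRNA, DPYSL5 for pre-gRNA).

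Among 10 tested other intermediate filaments, NES, the nestin gene of neural progenitors, was called higher in all 3 setups than in syn-gRNA (1.17, 0.66 and 0.73). With GC offsets the NES call stood for agoshRNA alone, and PRPH, the neuronal filament gene peripherin, was called lower in gRNA and pre-gRNA. The filament genes VIM (169 CPM per kb) and KRT18 (16.5) were expressed, and VIM exceeded NEFL. Of all genes, 13.2, 10.9 and 17.9% were called in either direction for agoshRNA, gRNA and pre-gRNA. Of 16 genes of axonal transport and the axon initial segment, 0, 0 and 2 were called (DCTN1 and SPTAN1, higher in pre-gRNA). Of 12 adhesion and guidance genes 3, 0 and 4 were called, with SLIT2, a guidance ligand, higher in syn-gRNA (-1.001 for agoshRNA and -0.71 for pre-gRNA) and PLXNA1, a semaphorin receptor, lower there (0.84 and 0.80).

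Of 9 tested genes of synaptic vesicles and release, 1 was called for agoshRNA and 1 for gRNA. VAMP2, a vesicle fusion protein, was higher in syn-gRNA (-0.76 for gRNA, and called at -0.77 for pre-gRNA), and SV2A was higher in agoshRNA (0.70). Of 7 neuronal RNA-binding proteins, 2, 0 and 3 were called: NOVA1, a splicing regulator, was higher in syn-gRNA (-0.79 for agoshRNA and -0.56 for pre-gRNA), CELF3 likewise for agoshRNA (-1.54), and NOVA2 and RBFOX3 were higher in pre-gRNA (0.98 and 0.85). Of 9 repressors of neuronal genes, 1, 2 and 2 were called. KDM1A, a histone demethylase, was lower in syn-gRNA (0.49, 0.50 and 0.46), and HDAC1, a histone deacetylase, was higher there (-0.53 for gRNA and -0.62 for pre-gRNA). REST, the repressor that binds many neuronal genes, was expressed at 27.3 CPM and was not called. Over the 94 tested genes of the 8 lists, 17.0, 9.57 and 22.3% were called, beside 13.2, 10.9 and 17.9% of all genes, and with same-letter libraries summed 3, 0 and 1 of 96 were called.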

How the data were processed

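Poly(A)-selected RNA of 24 libraries was sequenced as non-stranded paired reads of 100 nt, per the labels' protocols. Raw read counts per gene were deposited by the authors in 4 tables, with identical counts of 60658 genes. The reads were aligned to hg19, with STAR 2.7.3a, Trim Galore, featureCounts and DESeq2 named in the submitters' processing notes; counting settings are not given in the sources used here. The log2 fold changes and p-values of KD over NTC in the tables are the authors' own, and so is the signal column of mean normalized counts. Each table also held 24 columns of normalized counts, left out here. The length of merged exons was the one deposited by the authors. Gene type, and the length and GC content of the longest transcript, came from GENCODE 29, which matched 93.2% of genes.

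The 10 members and all lists were chosen with earlier results of these data known. CPM were counts scaled to a common library total, and r was computed on log2(CPM + 0.5). Tests used DESeq2 1.42.0 (Wald test, size factors, no covariates, no independent filtering) in R 4.3.3. The filter kept genes reaching 10 counts in 3 or more libraries: of the 6 libraries of a setup for the KD effect, and of all 24 libraries (1 coefficient per group) for differences between setups and of the KD effect. Adjusted p-values under 0.05 were called. The scripts were tested on simulated data. Alternatives were edgeR 4.0.16, TMM factors, other filters, GC offsets, the column letter as a block, other sets of libraries, and leaving out each library. All members were named. Of the lists, up to 3 called genes with the smallest adjusted p per comparison were named by rule, and any further list gene was picked with its value known. Results of some list genes are not reported here.

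The column letters deviate together: over 13835 genes, deviations from group means correlated at 0.361 to 0.975 in the 12 same-letter pairs of KD and NTC libraries, and at -0.945 to 0.494 in the 24 other pairs. Total counts of 10994974 to 16233777 per library limit precision for members with few counts, and limits from 0 counts cover counting error only.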

Additional observations from a re-analysis of the deposited data

How the results depend on the processing

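The labels' replicate numbers are not linked to any column, so the pairing used the column letter. This replicate block left 0 members called for the KD effect in every setup, with values such as -0.33 for NEFM in agoshRNA and 0.19 in pre-gRNA; with GC offsets as well, NEFM gave unadjusted p-values of 0.012 (-0.39) and 0.0137 (0.28), with adjusted p of 1.0. Over every alternative run, 0 members were called for the KD effect or its difference between setups. For the setup difference from syn-gRNA, the number of members called (0 for agoshRNA, 1 for gRNA and 1 for pre-gRNA) changed to 3, 0 and 1 with GC offsets (the last being MAPT instead of NEFM), to 0 for gRNA and 0 for pre-gRNA in KD or NTC libraries alone or with same-letter libraries summed, to 0 for pre-gRNA with edgeR or with no filter on low counts, to 2 for pre-gRNA with 10 counts in every library, and to 1, 2 and 3 with only the 12 libraries of the pair. Over all genes, the fits with GC offsets called 4853 (agoshRNA) and 4211 (gRNA) of 20171. Those with only the 12 libraries of the pair called 2946 of 19228 (agoshRNA) and 3940 of 19426 (gRNA). Leaving out 1 library gave 0 to 2, 0 to 1 and 0 to 2 members called. The cause was not tested, apart from fewer values in the fits of 1 arm or of summed libraries.

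Values near 0 changed sign. INA turned to -0.0872 for gRNA over syn-gRNA with GC offsets and to 0.0602 for pre-gRNA in KD libraries alone. In the KD effect NEFL became -0.0019 (pre-gRNA, GC offsets), MAPT -0.0234 and -0.0247 (gRNA, GC offsets without and with the block) and GAP43 0.0005 (pre-gRNA, block). Leaving out 1 library moved INA over -0.47 to 0.023, -0.0042 to 0.11 and -0.21 to 0.0899 against syn-gRNA (agoshRNA, gRNA, pre-gRNA). In the KD effect it moved NEFL over -0.50 to 0.19 (agoshRNA), -0.021 to 0.084 (pre-gRNA) and -0.098 to 0.23 (syn-gRNA), NEFM over -0.25 to 0.049 (gRNA), -0.026 to 0.46 (pre-gRNA) and -0.014 to 0.20 (syn-gRNA), INA over -0.95 to 0.41 (agoshRNA) and -0.16 to 0.43 (pre-gRNA), TUBB3 over -0.095 to 0.56 (gRNA), -0.67 to 0.28 (pre-gRNA) and -0.16 to 0.0301 (syn-gRNA), MAPT over -0.17 to 0.30 (gRNA), and GAP43 over -0.58 to 0.075 (gRNA) and -0.19 to 0.16 (pre-gRNA). The NEFM level of gRNA NTC libraries, 49.6 CPM, became 45.7 with size factors and 45.8 with TMM factors. Depth limits GAP43, and NEFH, MAP2, DCX and STMN2 did not reach the filter; with no filter on low counts all 10 members were tested and 0 were called for the KD effect.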
